A study of Mus musculus with 12 samples.

Results

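Desmosomes are the spot-like junctions that tie neighbouring cells to each other and anchor the keratin filaments of one cell to those of the next. Their adhesive parts are cadherins of 2 families, the desmogleins and the desmocollins, whose tails bind plakoglobin and the plakophilins, which in turn hold desmoplakin, the linker to the filaments. Stratified epithelia such as the mucosa of the tongue are known for Dsg1, Dsg3, Dsc1, Dsc3, Pkp1 and Pkp3, whereas heart muscle relies on Dsg2, Dsc2 and Pkp2. The 10 genes described here (Dsg1a, Dsg2, Dsg3, Dsc2, Dsc3, Jup, Pkp1, Pkp2, Pkp3 and Dsp) were chosen by name as members of this junction, out of 32498 named rows in the expression files. All 10 passed the filter on low values, a mean of at least 0.1 FPKM (fragments scaled by exon length and library total), together with 16852 named genes in all.

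The libraries were made from tongue tissue of C57BL/6 mice, labelled as tumor and tumor-associated. All mice were 5 weeks old at purchase, had received the carcinogen 4NQO (4-nitroquinoline 1-oxide) at 100 µg/mL for 16 weeks, and no allele beyond this strain was named. From week 4, 6 mice had been gavaged 5 times per week with gallic acid (GA) at 100 mg/kg and 6 with the vehicle alone, which was methyl cellulose with Tween-20. The tissue was not enriched for the epithelium, and no untreated tongue was among the groups, so every value below belongs to carcinogen-exposed tissue.

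Recovered totals were 18040323 to 21770143 reads per vehicle library and 21237308 to 25192578 reads per GA library. Replicate numbers but no animal identifiers were given, so each p-value measures the spread between these libraries. Of the 12 libraries, 5 held reads of Y-linked genes (vehicle 1 to 4 and GA 1) and 7 held none. Lipf, a lipase of the tongue glands, reached at least 8228 FPKM in 3 libraries (vehicle 3, vehicle 5 and GA 2), and the other 9 had at most 0.495 FPKM. Markers of stratified epithelium summed to between 13679 and 39223 FPKM, and all 11 were detected, so the stratified epithelium of the labelled tissue was present. Markers of skeletal muscle also summed to 1623 to 13540 FPKM in the vehicle libraries and 2287 to 10044 FPKM in the GA libraries, lowest in vehicle 1. Of the 6 cardiac muscle markers, Myh6, Nppa, Tnni3 and Ryr2 stayed below 1 FPKM in all 12 libraries, with Ryr2 at most 0.0144 FPKM, while Nppb reached 16.4 and Myl7 8.45 FPKM. In bulk tissue, fewer cells of a type and less RNA per cell cannot be told apart.

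The epithelial forms made up nearly all of the desmosomal RNA, with Dsc2 as the exception among the forms known from heart. Levels below are FPKM after scaling between libraries, and they are per length, so genes can be set side by side. Pkp1 had the highest mean over the 12 libraries (529 FPKM), followed by Dsp (448), Jup (263) and Pkp3 (149), and each of the first 3 exceeded the next in 12 of 12 libraries. Pkp3, Dsc2 (146), Dsg1a (137), Dsc3 (124) and Dsg3 (96.3) came next, and these neighbours were not separated, since the higher mean of a pair was the higher value in 8, 5, 9 and 11 of 12 libraries. After Dsg3 the levels broke off. Dsg2, with a mean of 2.42 FPKM, lay below Dsg3 in 12 of 12 libraries, by 5.22 ± 0.58 on the log2 scale (SD, n = 12), and Pkp2, with 0.486 FPKM, lay below Dsg2 in 12 of 12.

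**Figure D1:**
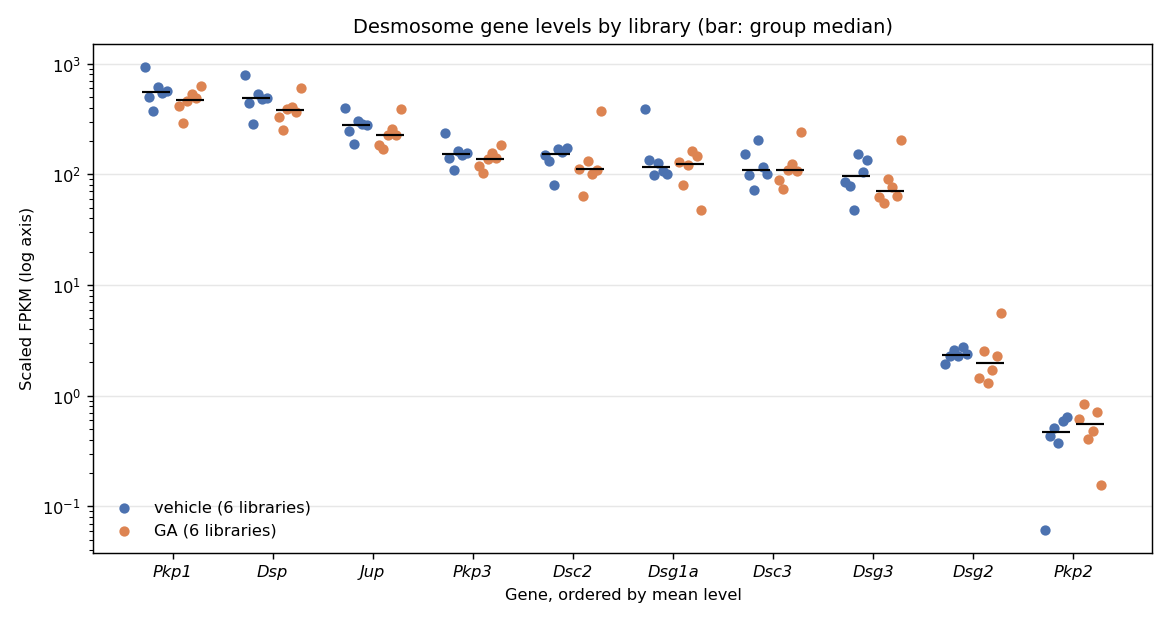
Scaled FPKM of the 10 desmosome genes in each library (log axis), ordered by mean level, with 6 vehicle libraries, 6 GA libraries and a bar at each group median. Pkp1, Dsp and Jup lie on top, 5 genes share the middle, and Dsg2 (mean 2.42) and Pkp2 (mean 0.486) lie far below, with the groups overlapping for every gene.

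All 5 cadherins of the set lie in the cluster on chromosome 18 (GRCm38, coordinates of GENCODE release M21). The desmocollins are on the minus strand, Dsc3 from 19960930 to 20002351 and Dsc2 from 20030633 to 20059554. The desmogleins are on the plus strand, Dsg1a from 20310811 to 20343350, Dsg3 from 20510274 to 20547459 and Dsg2 from 20558074 to 20604521. Of the exon bases of Dsg2, 3.99% overlap Gm16090, which is transcribed in the opposite direction, and whether counting used strand is not given in the sources used here. Dsg1a shares sequence with its tandem copies. Of the 50-base words in its transcripts, 31.6% also occur in those of Dsg1b and 18.8% in those of Dsg1c, so how reads that map uniquely divide among the copies is uncertain.

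Dsg1a encodes a form of desmoglein 1, the cadherin of the upper, differentiating layers. Its level was 98.7, 117 and 388 FPKM (lowest, median and highest) in the vehicle libraries and 47.7, 125 and 162 FPKM in the GA libraries. Both ends of the range were single libraries, since vehicle 1 held the highest value and GA 6 the lowest, and the other 10 lay between 79.6 and 162 FPKM. Its neighbouring copy Dsg1b was likewise highest in vehicle 1 (282 FPKM) but stood at 209 FPKM in GA 6, the second highest of all libraries. The ratio of Dsg1a to Dsg1b was thus 0.228 in GA 6, against 0.739 to 1.38 in the other 11.

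Dsg3 encodes a desmoglein of oral mucosa. It measured 47.4, 95.7 and 152 FPKM in the vehicle libraries and 54.9, 70.0 and 205 FPKM in the GA libraries. The highest library was GA 6, the one lowest in Dsg1a, and the lowest was vehicle 3. Dsg2, the desmoglein of simple epithelia and heart, measured 1.94, 2.32 and 2.78 FPKM with vehicle and 1.29, 1.99 and 5.58 FPKM with GA, which rested on 262 to 1209 reads per library. GA 6 again stood highest, at 5.58 FPKM, and the other 5 GA libraries reached at most 2.52 FPKM.

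Of the summed desmoglein FPKM, Dsg2 took 0.256% to 1.19%, so the mucosal desmogleins exceeded it in every library. Dsg3 was 18.4 to 70.6 times as high as Dsg2 (median 40.2). Dsg1a took from 10.2% of the sum in GA 6 to 51.1% in vehicle 1, and Dsg3 from 11.3% in vehicle 1 to 43.7% in GA 6, so the same 2 libraries marked opposite ends of both shares. Dsg1b kept to 33.8% to 44.7%. Dsg1c and Dsg4, a desmoglein of hair and of cornifying layers, each stayed below 1% of the sum.

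The desmocollins did not follow this pattern. Dsc2, which is expressed in simple epithelia and heart but also in stratified epithelia, measured 80.2, 154 and 172 FPKM with vehicle and 64.2, 111 and 371 FPKM with GA. Dsc3, the desmocollin of the lower layers, measured 72.6, 109 and 204 FPKM with vehicle and 73.6, 108 and 243 FPKM with GA. GA 6 was the highest library for both. The ratio of Dsc2 to Dsc3 lay between 0.823 and 1.72 (median 1.15), so Dsc2 was as abundant as its epithelial counterpart in tissue where Dsg2 was a trace. Of the summed desmocollin FPKM, Dsc2 took 13.7% to 48.5% and Dsc3 13.9% to 32.7%. The remainder was Dsc1, the form of the upper layers, which took 72.4% in vehicle 1 and 19.8% in GA 6, again the 2 extremes.

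**Figure D2:**
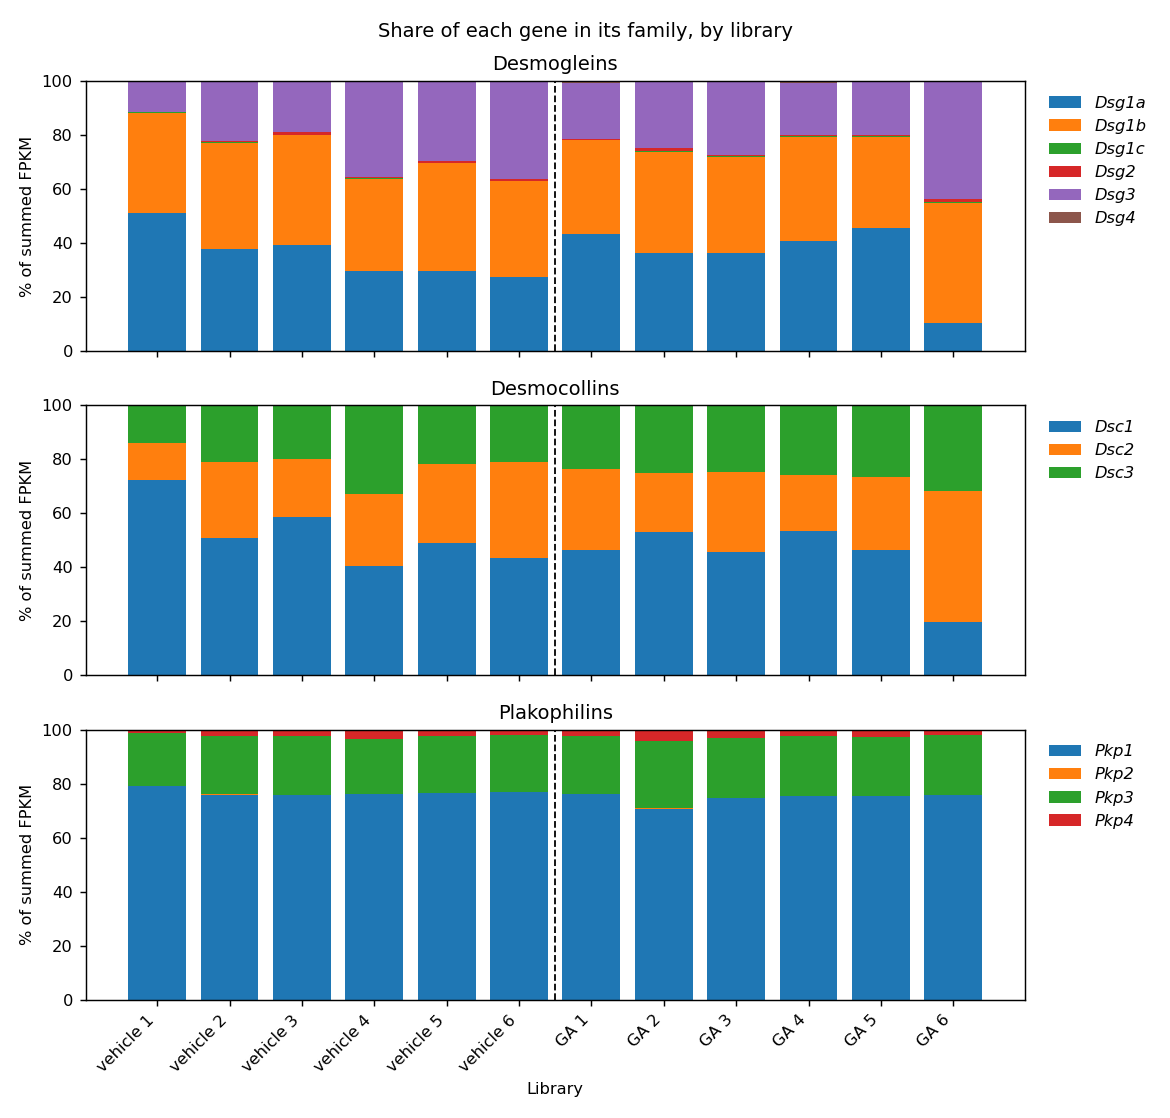
Share of each gene in the summed scaled FPKM of its family, in percent, for desmogleins, desmocollins and plakophilins in each of the 12 libraries, with a dashed line between vehicle and GA. Dsg2 is a thin band of at most 1.19%, Dsc2 takes 13.7% to 48.5%, vehicle 1 and GA 6 stand at opposite ends for Dsg1a, Dsg3, Dsc1 and Dsc2, and the plakophilin shares are nearly level.

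Among the armadillo proteins that bind the cadherin tails, Jup encodes plakoglobin, which also occurs in adherens junctions. The gene lies on the minus strand of chromosome 11, from 100368958 to 100397763. It measured 187, 282 and 397 FPKM with vehicle and 169, 227 and 391 FPKM with GA, with vehicle 1 highest and GA 2 lowest. The plakophilins lie apart from each other, Pkp1 on chromosome 1 (135871395 to 135919207, minus strand), Pkp2 on chromosome 16 (16213318 to 16272712, plus strand) and Pkp3 on chromosome 7 (141078218 to 141090510, plus strand).

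Pkp1, the plakophilin of the upper layers of stratified epithelia, measured 375, 559 and 931 FPKM with vehicle and 290, 471 and 631 FPKM with GA. Pkp3, which is found through all layers of such epithelia, measured 108, 153 and 235 FPKM with vehicle and 102, 138 and 186 FPKM with GA. For both genes vehicle 1 was highest and GA 2 lowest. Pkp2, the plakophilin of heart and simple epithelia, measured 0.0616, 0.473 and 0.645 FPKM with vehicle and 0.157, 0.550 and 0.848 FPKM with GA. These values rested on 6 to 106 reads per library, and the order of libraries was turned round, with vehicle 1 lowest (6 reads), then GA 6 (22 reads), and GA 2 highest (106 reads). Of the summed plakophilin FPKM, Pkp1 took 70.7% to 79.0%, Pkp3 19.9% to 25.0%, Pkp4 1.09% to 4.17% and Pkp2 0.00523% to 0.207%, so the shares of Pkp1 and Pkp3 kept to narrower ranges than those of Dsg1a, Dsg3 or Dsc2.

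Dsp encodes desmoplakin, the linker from the plaque to keratin filaments, and lies on the plus strand of chromosome 13, from 38151294 to 38198577. Of its exon bases, 5.17% overlap Gm10129 on the other strand. It measured 285, 486 and 797 FPKM with vehicle and 253, 378 and 598 FPKM with GA, with vehicle 1 highest and GA 2 lowest, as for Jup, Pkp1 and Pkp3. The ratio of Dsp to Jup lay between 1.50 and 2.01 in all 12 libraries.

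Pkp1, Dsp, Jup and Pkp3 moved together across libraries, with an SD of the log2 ratio of 0.11 for Pkp1 to Dsp, 0.12 for Dsp to Jup and 0.12 for Jup to Pkp3. Promoter windows were examined for 2 of the 10 genes, Jup and Dsp, and those of the other members were not examined. The 250 bases before the RefSeq starts of Jup and Dsp are shown (GRCm38.p6). Capitals mark matches to a GC box (GGGCGG or its reverse complement) and to a CCAAT box (CCAAT or its reverse complement).
Jup, chr11:100397791-100398040, minus strand: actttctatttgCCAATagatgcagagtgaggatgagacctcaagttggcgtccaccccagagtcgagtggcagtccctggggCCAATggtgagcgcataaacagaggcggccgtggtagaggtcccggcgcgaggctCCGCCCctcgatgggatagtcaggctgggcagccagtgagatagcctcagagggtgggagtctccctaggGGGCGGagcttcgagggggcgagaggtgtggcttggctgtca
Dsp, chr13:38151044-38151293, plus strand: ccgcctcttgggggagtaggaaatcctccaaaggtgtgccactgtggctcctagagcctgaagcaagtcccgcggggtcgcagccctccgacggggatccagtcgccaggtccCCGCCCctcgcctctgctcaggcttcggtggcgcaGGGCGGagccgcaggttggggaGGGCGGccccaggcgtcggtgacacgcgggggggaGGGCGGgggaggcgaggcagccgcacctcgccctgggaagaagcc
The Jup window held 2 GC boxes, 112 and 42 bases before the start, and 2 CCAAT boxes, and 62.0% of its bases were G or C. The Dsp window held 4 GC boxes, the nearest 45 bases before the start, and 72.4% of its bases were G or C, against a median of 52.4% over 32851 windows of the same length. A GC box was present in 32.7% of those windows and a CCAAT box in 33.8%. Neither window held an AP-1 site (TGANTCA, 6.75% of windows), a TATA box (TATAAA, 12.4%) or the Grainyhead sequence AACCGGTT (0.116%), all searched on both strands.

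The comparison of GA with vehicle asked whether the treatment shifted the junction genes. None of the 10 genes was called by limma, where a call needed an adjusted p under 0.1 together with a log2 difference of 0.58 or more in either direction. Over all 16852 genes 0 were called (0%), and the smallest adjusted p of all genes was 0.999. An unadjusted p below 0.05 was reached by 0 of 10 members, against 367 of all genes (2.18%), 208 of them lower with GA (1.23%). Recovered reads tested with limma-voom gave 0 calls too and 335 genes at that unadjusted limit. For every member the groups overlapped, where 13 of all genes (0.0771%) did not. The mean log2 level was lower with GA for 9 of 10 members (7 of 10 without GA 1 or without GA 2), against 52.4% of all genes, and their median log2 difference was -0.18, against -0.01 for all genes. By the mean FPKM 7 of 10 were lower, since Dsg2 (2.37 FPKM with vehicle, 2.47 with GA) and Dsc2 (144 and 148 FPKM), both highest in GA 6, joined Pkp2 on the higher side. Directions below are those of mean log2 levels. These members are not independent of each other, since they rise and fall together across libraries, as described below.

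Among the cadherins, the log2 difference of GA from vehicle was -0.39 for Dsg1a (SE 0.37, 95% interval -1.19 to 0.42), although its GA median was the higher one, and 4 of 6 GA libraries lay above the vehicle median. It was -0.09 without vehicle 1 and -0.16 without GA 6. For Dsg3 the difference was -0.19 (interval -0.93 to 0.55) and for Dsg2 -0.11 (interval -0.73 to 0.51). Dsc2 had a difference of -0.15 (interval -0.91 to 0.60) and Dsc3 of -0.04 (interval -0.67 to 0.60). Each of these 5 intervals reached below -0.58, so a decrease of the size set for a call lay within the interval of every cadherin. For Dsc2 and Dsc3 an increase of that size lay within the interval as well. The sign turned for Dsg2 without GA 1 or GA 3, for Dsc2 without GA 2, and for Dsc3 without vehicle 1, vehicle 4, GA 1 or GA 2. GA 6 was the highest library for the other 4 cadherins, and without it the differences were -0.45 for Dsg3, -0.37 for Dsg2, -0.46 for Dsc2 and -0.25 for Dsc3. Without vehicle 1 and GA 6, a choice made after the data were seen, the difference of Dsg1a turned to 0.14, while that of Dsg2 was -0.43 (unadjusted p = 0.0415, adjusted p = 0.784 in limma). In that fit 937 of 16885 genes had an unadjusted limma p below 0.05, among them 1 member.

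Among the plaque genes, the log2 difference was -0.35 for Dsp (SE 0.25, interval -0.89 to 0.18), which had the smallest unadjusted limma p of the members, 0.178. It was -0.32 for Pkp1 (SE 0.23, interval -0.82 to 0.19), -0.24 for Jup (SE 0.22, interval -0.71 to 0.23) and -0.17 for Pkp3 (SE 0.19, interval -0.57 to 0.23). For Dsp, Pkp1 and Jup 5 of 6 GA libraries lay below the vehicle median, and for Pkp3 4 of 6 did. Without vehicle 1, the highest library for all 4, the differences were -0.21 for Dsp, -0.17 for Pkp1, -0.14 for Jup and -0.05 for Pkp3. Without vehicle 3 they were larger, from -0.27 for Pkp3 to -0.51 for Dsp. In that fit 1 of the 10 members had an unadjusted limma p below 0.05, beside 808 of 16838 genes, and none was called. With no library left out, the interval of Pkp3 alone among the members stayed inside -0.58 and 0.58. Pkp2 was the member with the higher mean log2 level in GA, by 0.28 (SE 0.41, interval -0.60 to 1.16), and without vehicle 1, where it had 6 reads, that difference was -0.04.

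The other genes of the junction gave the same count of calls, 0. Of the 5 other cadherins and plakophilins, 3 were lower and 2 higher with GA. Dsc1, the upper-layer desmocollin, measured 210, 245 and 793 FPKM with vehicle and 151, 180 and 255 FPKM with GA. Its log2 difference of -0.64 had an unadjusted p of 0.0493 and an adjusted p of 0.999 in limma, and 5 of 6 GA libraries lay below the vehicle median. Without vehicle 1, the library at 793 FPKM, the difference was -0.35. Of the 5 desmosome-associated genes 4 were lower, with a median difference of -0.19, among them Perp, a membrane protein needed for desmosome assembly, at -0.31, and Cdsn, corneodesmosin of the cornifying layers, at -0.19. The envelope plakins Ppl (-0.04) and Evpl (0.06) were nearer to 0. All 9 adherens junction genes had lower mean log2 levels with GA, with a median of -0.10 and a range from -0.31 for Cdh3, P-cadherin, to -0.05 for Afdn. For Cdh1, E-cadherin, the difference was -0.14 and for Ctnnb1, beta-catenin, -0.08. Of the exon bases of Ctnnd1, Vcl and Ctnnb1, 61.2%, 25.5% and 15.1% overlap another gene, so their levels are uncertain.

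**Figure D3:**
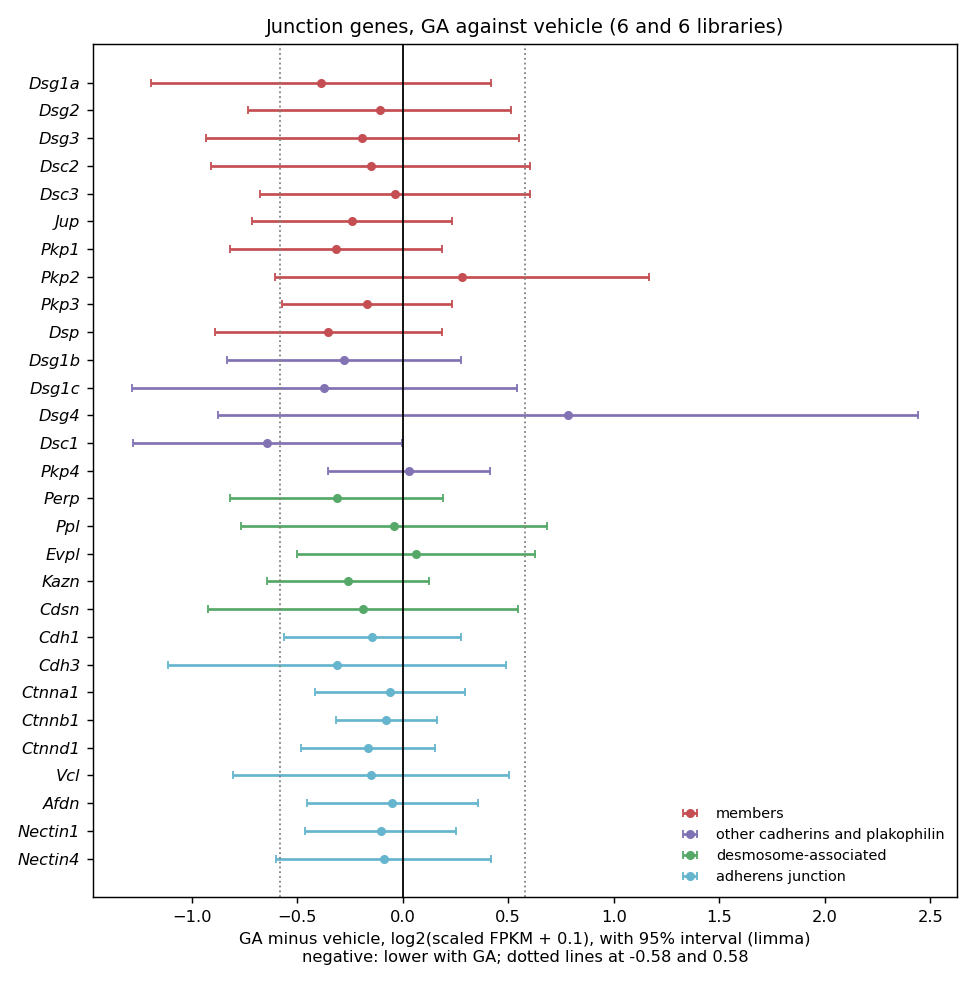
GA minus vehicle for the 10 desmosome genes and 19 other junction genes, as the difference on log2(scaled FPKM + 0.1) with its 95% interval from limma (6 and 6 libraries), and dotted lines at -0.58 and 0.58. All members' intervals include 0, and Dsc1, at -0.64, has an interval that ends just below 0.

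Isoform use was compared within each library as the log2 ratio of 2 members, for 7 pairs and with exact two-sided permutation tests. Since 0.1 FPKM was added to both levels, the scaling nearly cancels, but less so for low genes such as Pkp2. The pairs that set a heart-type form against an epithelial one did not differ beyond the spread between libraries. Dsg2/Dsg3 was -5.26 ± 0.65 with vehicle and -5.18 ± 0.57 with GA (n = 6 each, ± SD), a difference of 0.08 (exact permutation p = 0.816). Dsc2/Dsc3 was 0.24 ± 0.37 with vehicle and 0.13 ± 0.34 with GA, a difference of -0.12 (exact permutation p = 0.582). Pkp2/Pkp1 was higher by 0.60 (SE 0.63) and Pkp2/Pkp3 by 0.45 (SE 0.60) in GA, with exact permutation p = 0.390 and 0.485, and the sign of both turned in the 7 libraries without Y-linked reads. Single libraries moved both far, to 0.14 and 0.01 without vehicle 1 and to 0.93 and 0.78 without GA 6. The amount added to the levels moved both too. With 0.01 in place of 0.1 the differences were 0.71 and 0.57, and with 1 they were 0.41 and 0.26. For the pair of mucosal desmogleins, Dsg1a/Dsg3, the difference was -0.20 (SE 0.65, exact permutation p = 0.784), and it was 0.30 without GA 6 and 0.13 without vehicle 1.

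Of the 7 ratios, Pkp1/Pkp3 passed the test. In the vehicle libraries it was 1.79, 1.87 and 1.99 (lowest, median and highest log2 ratio) and in the GA libraries 1.50, 1.76 and 1.82. The GA libraries lay below the vehicle median in 6 of 6, and the groups overlapped only at their edges, where GA 1 at 1.82 stood above vehicle 3 at 1.79. The mean fell by 0.15 on the log2 scale, from 1.88 ± 0.07 to 1.73 ± 0.12 (SD, n = 6 each; SE of the difference 0.05, exact permutation p = 0.00433, adjusted over the 7 ratios 0.0303). On the linear scale, Pkp1 was 2.83 times Pkp3 in GA 2, the lowest library, and 3.97 times in vehicle 1, the highest. Without GA 2 the difference was -0.10. The adjusted p stayed below 0.05 without vehicle 3 or without GA 1 and rose above it, to at most 0.106, when any of the other 10 libraries was left out. Among the 7 libraries without Y-linked reads the difference was -0.16 (2 vehicle and 5 GA, exact permutation p = 0.238), and within strata set by those reads it was -0.12 (exact permutation p = 0.0952). Neither of these last settings could reach an adjusted p below 0.05 for a single ratio. The direction was the same in each of these settings. Jup/Dsp was -0.80 ± 0.13 with vehicle and -0.69 ± 0.10 with GA, a difference of 0.11 that did not pass (exact permutation p = 0.126, adjusted 0.439).

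**Figure D4:**
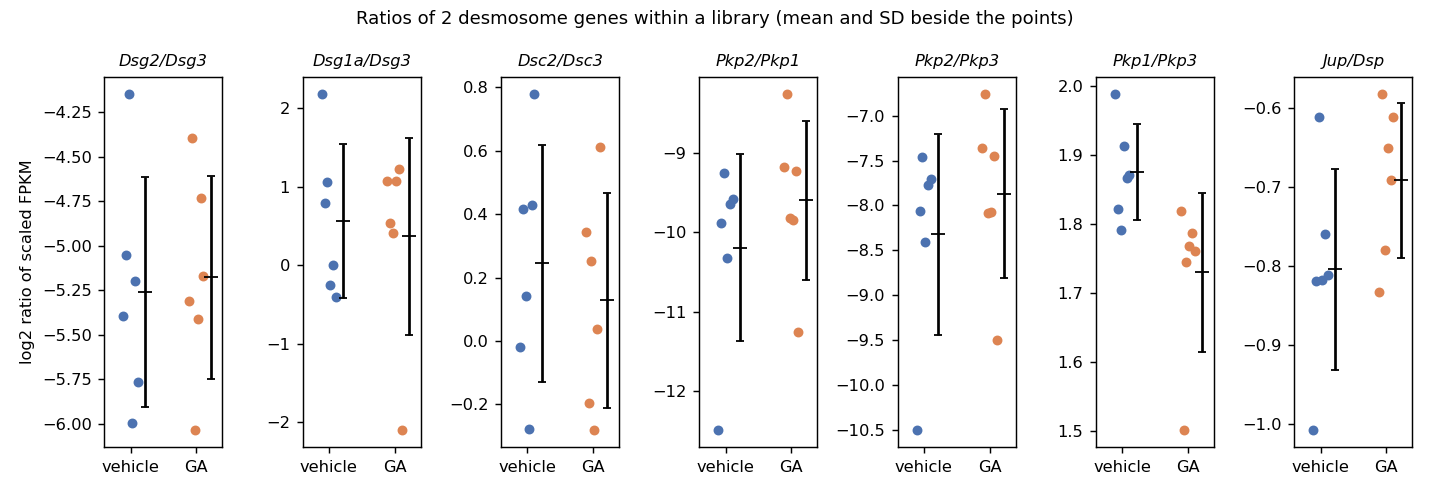
Log2 ratio of 2 desmosome genes within each library, in vehicle and GA (6 each), with mean and SD beside the points and a separate axis for each of the 7 pairs. Only for Pkp1/Pkp3 do the GA values, 1.50 to 1.82, lie below the vehicle median of 1.87 in 6 of 6 libraries.

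The members differed in how much they varied between libraries. The median within-group SD on the log2 scale was 0.54 for the 10 members, against 0.39 for all tested genes and 0.30 for the 12166 genes whose mean reached 1 FPKM, and single members ranged from 0.33 for Pkp3 to 0.74 for Pkp2. Their levels moved with the tissue in the library. The plaque genes other than Pkp2, and Dsc3, ran opposite to the skeletal muscle list (the mean log2 level of its 11 genes), with Pearson r = -0.96 for Pkp3, -0.94 for Dsp, -0.93 for Jup, -0.92 for Pkp1 and -0.84 for Dsc3 over 12 libraries (Spearman rho = -0.92, -0.89, -0.92, -0.89 and -0.95). Over the 20 relations tested, the adjusted permutation p of these 5 was between 0.0002 and 0.00185 for r and between 0.000533 and 0.00088 for rho. Without the 2 libraries farthest from the median, r stayed between -0.94 and -0.89. Within the vehicle group r was -0.78 to -0.98 and within the GA group -0.95 to -0.99, and in the 9 libraries without high Lipf it was -0.76 to -0.95 and in the 7 without Y-linked reads -0.87 to -0.95. FPKM values are shares of a library, so the levels of its tissues are not independent of each other.

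Dsc2 (r = -0.73, rho = -0.66) and Dsg3 (r = -0.68, rho = -0.76) ran the same way, with adjusted permutation p = 0.0164 and 0.026 for r and 0.0378 and 0.0126 for rho, and r = -0.86 and -0.82 without the 2 farthest libraries. Without the high-Lipf libraries, these were -0.53 and -0.45. Dsg1a (r = -0.37, adjusted permutation p = 0.26) and Dsg2 (r = -0.16, adjusted permutation p = 0.643) did not pass. Both turned on single libraries: without GA 6, r was -0.82 for Dsg1a and 0.25 for Dsg2. The sign also differed between the groups. Within vehicle r was -0.81 for Dsg1a and 0.68 for Dsg2, and within GA it was 0.34 and -0.48. Pkp2 was the member that ran with muscle, with r = 0.82 and rho = 0.80 (adjusted permutation p = 0.00242 and 0.00711), r = 0.89 without the 2 farthest libraries, 0.75 within vehicle and 0.93 within GA. At 6 to 106 reads, its levels carry counting error as well.

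**Figure D5:**
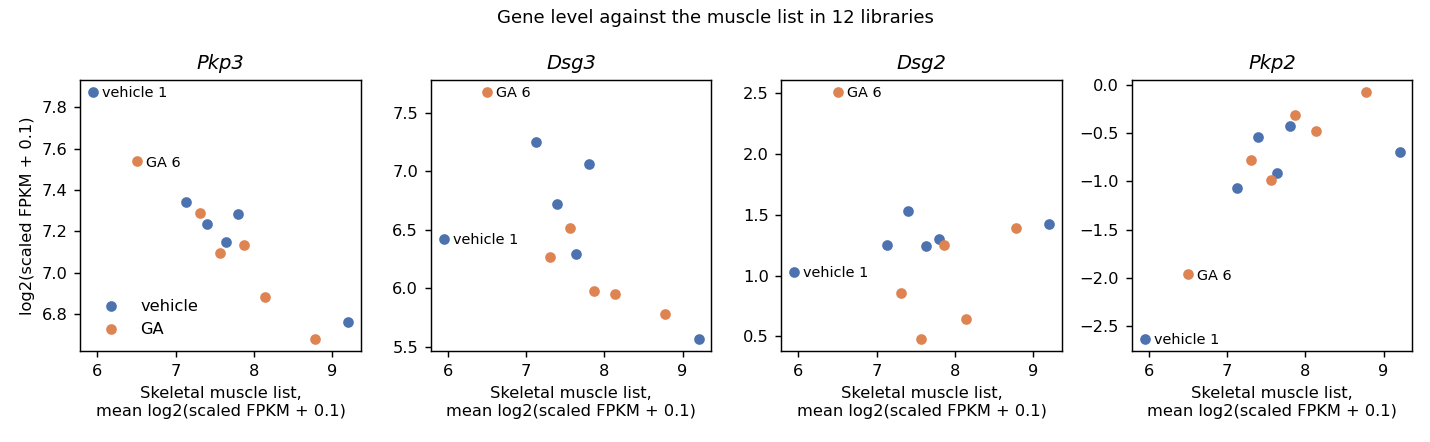
Level of Pkp3, Dsg3, Dsg2 and Pkp2 (log2 of scaled FPKM + 0.1) against the mean log2 level of 11 skeletal muscle genes in the 12 libraries, with vehicle 1 and GA 6 marked. Pkp3 falls (r = -0.96) and Pkp2 rises (r = 0.82) along the axis. For Dsg2 the relation over all libraries did not pass (r = -0.16), and GA 6 stands alone at the top of its panel.

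With the list of 11 stratified epithelium genes the order was the reverse. Pearson r was 0.91 for Pkp1, 0.90 for Pkp3, 0.87 for Dsp and 0.82 for Jup (adjusted permutation p = 0.0003, 0.000333, 0.0006 and 0.00268; rho = 0.79, 0.83, 0.77 and 0.75), and 0.69 to 0.82 without the 2 farthest libraries. For Dsc2, Dsc3 and Dsg3 r was 0.62, 0.61 and 0.59, and it was 0.22, 0.30 and 0.29 without vehicle 3 and GA 2, so these relations rest on those libraries. Pkp2 had r = -0.62, and Dsg2 had r = -0.06.

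The tissue lists themselves were not even between the groups. With GA, 8 of 11 muscle genes had higher mean log2 levels (median log2 difference 0.56, range -1.20 to 0.73). Of the stratified epithelium genes, 10 of 11 had lower ones (median -0.14, range -0.64 to 0.26). None of the genes of either list was called. The sum of the epithelium list was 17075 to 39223 FPKM with vehicle and 13679 to 27242 FPKM with GA. All 5 neutrophil genes (median -0.78) and all 4 fibroblast genes (median -0.40) had lower mean log2 levels with GA and all 4 endothelial genes higher ones (median 0.09). Of the 8 gland and simple epithelium genes tested, 6 had lower ones and 2 higher ones (median -0.56). The part of these lists in the members' differences was not tested. With the muscle score as a covariate, 8 of 10 members remained below 0 with a median of -0.11, and Dsp (-0.27, unadjusted p = 0.00691) and Pkp1 (-0.24, unadjusted p = 0.0293) were the members past an unadjusted limma p of 0.05, with an adjusted p of 0.994 each. In that fit 682 of all 16852 genes passed the same unadjusted limit, against 367 without the covariate. With the epithelium score as a covariate, 7 of 10 were below 0, with a median of -0.06. Other settings moved the median away from 0. With a term for Y-linked reads 9 of 10 were below 0, with a median of -0.30. Without the high-Lipf libraries 9 of 10 were below 0 as well, with a median of -0.25. No member was called in any of these fits.

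The genes whose levels were most like that of Dsg2 over the 12 libraries, among 12157 genes whose mean reached 1 FPKM, were Csta3 (Pearson r = 0.92), Ncdn (0.90), Lsm11 (0.88), Abcf1 (0.87) and Trp53i13 (0.87). All 5 were highest in GA 6, as Dsg2 was, and without that library r was 0.64 to 0.90. Csta3, a stefin of the cysteine protease inhibitors, kept 0.90. For Dsg3 the most similar genes were Nup205, a nuclear pore protein (r = 0.98), Pfkl, a phosphofructokinase of glycolysis (0.98), Ero1a, an oxidase of the endoplasmic reticulum (0.97), Gna13 (0.96) and Tenm4 (0.96), with r of 0.95 to 0.97 when GA 6 was left out.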

How the data were processed

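The authors extracted RNA with the RNeasy Plus Mini Kit, prepared libraries with the SMARTER mRNA-Seq kit, used HISAT2 to align reads to mm10, and took gene counts from featureCounts, unique alignments only. The deposited unit is FPKM, 1 file per library. Of 55463 rows, 22965 had no gene name (16.2% to 25.5% of summed FPKM) and were left out. Library totals were recovered from low values, of which 97.6% to 98.3% were whole reads within 0.02, with exon lengths of GENCODE release M21 less 17.05 to 24.2 bases. The recovered reads depend on exon length, so they served only for an alternative fit, with limma-voom. The method of the authors, edgeR, was not run.

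Values were divided by trimmed-mean factors (0.896 to 1.07) and compared as log2(FPKM + 0.1) with limma 3.58.1 (trend) in R 4.3.3, Benjamini-Hochberg adjusted over 16852 named genes. Fold changes on this scale understate the change of low genes. Ratios were tested by exact permutation (smallest p 0.00216) and relations with 100000 resamples (scipy 1.17.1, smallest p 1e-05). Scripts were tested on simulated data. Alternatives were other pseudocounts (0.01 and 1), filters, scalings, covariates, a replicate block and leaving out libraries. The text gives the 10 members, the lists of other junction and marker genes, and the 5 genes most like Dsg2 and Dsg3. Members and lists were chosen with earlier results of these data known. Promoter sequences are from RefSeq (GRCm38.p6).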

Additional observations from a re-analysis of the deposited data

Results flagged for a closer look

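The gap share is the gap between an extreme library and its nearest neighbour, as a part of the group's range. It was taken on log2 levels, so it does not follow from the FPKM values printed beside it. In 15 of 72 groups of 6 libraries, the gap share exceeded Dixon's 95% critical value for 6 samples. Chance flags about 1 in 20. These groups are not independent, because the genes move together.

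Vehicle 1 stood apart for 7 of them. It was highest for Dsg1a (388 FPKM against 98.7 to 136 in the other 5, gap share 0.767), Dsg1b (282 against 102 to 147, 0.636), Dsc1 (793 against 210 to 265, 0.822) and Cdsn (809.5 against 174 to 309, 0.626), all genes of the upper layers. It was lowest for Pkp2 (0.0616 FPKM against 0.377 to 0.645, 0.708), for the log2 ratio Pkp2/Pkp1 (-12.49 against -10.33 to -9.25, 0.669) and for Pkp2/Pkp3 (-10.50 against -8.41 to -7.46, 0.688). This library also had the lowest muscle score of the 12.

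GA 6 was highest in its group for Ctnna1 (60.3 FPKM against 37.4 to 43.8, gap share 0.67) and Nectin1 (40.1 against 21.1 to 26.8, 0.627), and lowest for the log2 ratio Dsg1a/Dsg3 (-2.10 against 0.40 to 1.22, 0.754).

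GA 2, a library with high Lipf, was lowest for Ppl (37.5 FPKM against 72.5 to 103, gap share 0.65), Evpl (45.9 against 83.7 to 96.9, 0.804), Afdn (14.4 against 19.6 to 21.6, 0.756) and the log2 ratio Pkp1/Pkp3 (1.50 against 1.74 to 1.82, 0.766). Vehicle 3, also with high Lipf, was lowest for Dsc2 (80.2 FPKM against 133 to 172, 0.658).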

How the results depend on the processing

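No gene or member was called under 15 alternatives to the fit, and 1 gene was called without vehicle replicate 4, a range of 0 to 1 (0 to 0 for members) over the libraries left out in turn; 367 genes had an unadjusted p below 0.05. The log2 differences that reversed belonged to genes not called. With vehicle 1 and GA 6 left out, the log2 difference was 0.14 for Dsg1a, -0.048 for Pkp4, 0.22 for Ppl, 0.10 for Afdn, 0.030 for Nectin4. With the epithelium term, the log2 difference was 0.047 for Dsc2, 0.13 for Dsc3, 0.20 for Ppl, 0.048 for Cdsn, 0.021 for Ctnna1, 0.0018 for Ctnnb1, 0.085 for Afdn, 0.00078 for Nectin1, 0.10 for Nectin4. With the muscle term, the log2 difference was 0.053 for Dsc3, 0.034 for Ppl, 0.0010 for Afdn. With the libraries without Y-linked reads alone, the log2 difference was 0.15 for Dsc3, -0.34 for Pkp2, 0.046 for Ppl, 0.041 for Cdsn, 0.11 for Afdn, 0.028 for Nectin4. With the sex term, the log2 difference was -0.041 for Pkp4, 0.11 for Ppl, 0.032 for Afdn. With the high-Lipf libraries left out, the log2 difference was -0.067 for Pkp4. Of 348 values with 1 library left out 22 reversed, and the ranges were -0.37 to 0.033 for Dsg2, -0.46 to 0.041 for Dsc2, -0.25 to 0.12 for Dsc3, -0.036 to 0.52 for Pkp2, -0.054 to 0.18 for Pkp4, -0.19 to 0.21 for Ppl, -0.061 to 0.24 for Evpl, -0.36 to 0.086 for Cdsn, -0.17 to 0.0070 for Ctnna1, -0.14 to 0.11 for Afdn, -0.22 to 0.081 for Nectin4. 

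Among the ratios, Dsg1a/Dsg3 was 0.32 (within sex strata), Dsg1a/Dsg3 was 0.42 (the libraries without Y-linked reads alone), Dsg1a/Dsg3 was 0.62 (vehicle 1 and GA 6 left out), Pkp2/Pkp1 was -0.074 (the libraries without Y-linked reads alone), Pkp2/Pkp3 was -0.23 (the libraries without Y-linked reads alone). Pkp1/Pkp3 kept its direction but lost its call: -0.12 with an adjusted p of 0.667 (within sex strata), -0.15 with an adjusted p of 0.219 (replicate block), -0.12 with an adjusted p of 0.0556 (the high-Lipf libraries left out), -0.16 with an adjusted p of 0.556 (the libraries without Y-linked reads alone), -0.13 with an adjusted p of 0.111 (vehicle 1 and GA 6 left out). In none of these 5 settings could the adjusted p of a single ratio go below 0.05, so the lost call by itself says nothing about stability. The unadjusted exact permutation p of Pkp1/Pkp3 can be set against its smallest possible value. It equalled that limit with the replicate block (0.03125) and with the high-Lipf libraries left out (0.00794). It lay above the limit within sex strata (0.0952, limit 0.00952) and once libraries holding Y-linked reads were dropped (0.238, limit 0.0476). Without vehicle 1 and GA 6 it was 0.0159 (limit 0.00794). With a library left out, the ranges were -0.074 to 0.31 for Dsg2/Dsg3, -0.39 to 0.30 for Dsg1a/Dsg3, -0.16 to -0.10 for Pkp1/Pkp3. For the relations, r ranged from 0.18 to 0.70 for Dsg1a with epithelium, from -0.82 to 0.14 for Dsg1a with muscle, from -0.25 to 0.0029 for Dsg2 with epithelium, from -0.30 to 0.25 for Dsg2 with muscle, from 0.49 to 0.70 for Dsg3 with epithelium, from -0.85 to -0.58 for Dsg3 with muscle, from 0.45 to 0.80 for Dsc2 with epithelium, from -0.84 to -0.66 for Dsc2 with muscle, from 0.51 to 0.70 for Dsc3 with epithelium, from -0.76 to -0.42 for Pkp2 with epithelium. 

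Same-numbered libraries did not deviate together (correlations of -0.37 to 0.08, 0 of 6 above 0.1), so no pairing by number was visible. Whether the mice were paired cannot be told from these correlations. The replicate block called 0 genes and left 229 at an unadjusted limma p below 0.05. Beyond the lost call of Pkp1/Pkp3 it changed no call. Depth limits Pkp2 most, at 6 to 106 reads; the causes of the changes above were not tested.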
